A study of Mus musculus with 6 samples.

Results

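The 8 genes described here are among 24421 gene symbols in the count table. Of the 8, 7 encode glycoproteins of the acellular matrices of the inner ear (Tecta, Tectb, Ceacam16, Otoa, Otog, Otogl and Otol1). These 7 were taken by protein family and inner ear role. The eighth, Umodl1, was chosen by its large rise in these same libraries, so its values are a description without a test. The data came from cochlear explants of WT mice at postnatal day 2 (P2), in 3 control samples and 3 samples treated with neomycin, and each sample pooled several cultured cochleae. All explants were cultured for 12 h before the damage step and for 5 days after it with 10 µM EdU, a label of DNA synthesis. The neomycin group received 1 mM neomycin, an aminoglycoside that kills hair cells (HCs), over 6 h. The submitted growth text gives neomycin for all 6 samples, and the groups here rest on the treatment label. Per the study's methods, the tectorial membrane and the anlage of the stria vascularis were removed before culture.

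The tectorial membrane is a sheet of extracellular matrix that lies over the organ of Corti and couples sound-driven motion to HC bundles. Collagen fibrils run through a striated sheet made of α-tectorin, β-tectorin and CEACAM16, and the tectorins polymerise through their zona pellucida domains. Cells of the greater epithelial ridge and supporting cells make the tectorins during late embryonic and early postnatal life. Otogelin and otogelin-like belong to the mucin family with von Willebrand D domains and occur in all the acellular membranes of the inner ear. Otoancorin anchors such membranes to non-sensory cells, and otolin-1 is a scaffold protein of the otoconia in the vestibule.

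Total counts ran from 50471116 to 66068108 per sample, and all 8 genes passed the filter on low counts, among 15988 genes tested. The 8 genes together took 0.523 to 0.632% of all counts in the control samples and 0.651 to 1.02% in the neomycin samples. Levels are given as CPM, counts relative to library size after scaling by the TMM factors of edgeR. Markers of HCs fell in 19 of 23 genes and 4 did not pass edgeR's quasi-likelihood test, with summed levels of 908.6 to 1079 CPM in controls and 362.9 to 449.3 CPM after neomycin. Markers of supporting cells and the greater epithelial ridge, the known source of tectorins, rose in 5 and fell in 5 of 24 genes, with summed levels of 9165 to 9973 CPM in controls and 10660 to 11160 CPM after neomycin. Most of that difference lay in Epyc, which did not pass the test (edgeR adjusted p = 0.132), and S100a1. The other 22 genes summed to 2404 to 2469 CPM in controls and 2372 to 2589 CPM after neomycin, with overlap. Without control replicate 2, 6 of the 24 genes passed. No marker gene of either list was at 0. Among all genes tested, 12.9% rose and 16.1% fell at an adjusted p under 0.05 by edgeR. In bulk RNA, fewer cells of a type and less RNA per cell cannot be told apart.

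The sequences before the transcription starts of 4 genes are given: Tectb and Tecta, the most abundant, Umodl1, with the largest difference, and Otol1, with the smallest spread. They are from RefSeq on build GRCm38.p6 (mm10), 5′ to 3′ on the strand of each gene. The windows are chr19:55180476-55180725 (plus strand) for Tectb, chr9:42399948-42400197 (minus strand) for Tecta, chr17:30954433-30954639 (plus strand) for Umodl1 and chr3:70007363-70007612 (plus strand) for Otol1. The Umodl1 window holds 207 bases, cut before the GENCODE start of the gene, and the others hold 250. Capitals mark matches to GATAA on either strand, the core letters bound by GATA factors.
Tectb: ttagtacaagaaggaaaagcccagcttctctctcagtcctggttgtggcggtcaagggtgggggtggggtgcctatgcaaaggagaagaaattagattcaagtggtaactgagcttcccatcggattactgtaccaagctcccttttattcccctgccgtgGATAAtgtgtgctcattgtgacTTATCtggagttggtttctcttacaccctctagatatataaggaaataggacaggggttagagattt
Tecta: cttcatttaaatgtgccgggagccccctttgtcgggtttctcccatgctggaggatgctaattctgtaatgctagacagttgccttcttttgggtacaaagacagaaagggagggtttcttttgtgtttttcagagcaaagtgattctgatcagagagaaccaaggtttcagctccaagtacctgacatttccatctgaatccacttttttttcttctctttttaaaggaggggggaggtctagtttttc
Umodl1: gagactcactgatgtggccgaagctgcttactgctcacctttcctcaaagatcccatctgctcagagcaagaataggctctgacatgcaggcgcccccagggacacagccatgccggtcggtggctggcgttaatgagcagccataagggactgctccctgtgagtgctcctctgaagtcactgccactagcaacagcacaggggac
Otol1: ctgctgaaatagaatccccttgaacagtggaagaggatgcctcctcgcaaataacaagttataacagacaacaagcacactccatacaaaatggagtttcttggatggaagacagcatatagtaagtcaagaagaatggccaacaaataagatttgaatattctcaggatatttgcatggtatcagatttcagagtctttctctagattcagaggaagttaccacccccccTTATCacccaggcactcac

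Of the 8 genes, 6 had an entry in the RefSeq promoter table, with a second start for Tecta. Otogl and Ceacam16 had none. GATAA occurred in the windows of Tectb, at 89 and 67 bases before the start, of Otol1, at 19 bases before it, and of the second start of Tecta, at 50 bases before it, and 22.6% of 32851 promoter windows of 250 bases hold it on either strand. Other exact runs of letters were searched on both strands, and none of the members' windows of 250 bases held them. They were GGAATG, letters bound by TEAD factors (12.6% of all windows), and TATAAA, a form of the TATA box (12.4%). The last was AGGTCA, letters bound by nuclear receptors such as those for thyroid hormone (14%). Variants of these letters, such as the tatataag in the Tectb window, were not searched, so a TATA box of another form is not excluded. A match is only a run of letters in the window, and no binding was measured.

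Among the 7 genes taken by family, Tectb and Otoa rose and Otogl and Otol1 fell after neomycin, while Tecta, Otog and Ceacam16 did not pass the test. That is 4 of 7 at an adjusted p under 0.05 by edgeR, against 29.0% of all genes tested. Of these, 2 were higher, against 12.9% of all genes, and 2 were lower, against 16.1%. With a fold change over 1.5 also required, 1 of 7 was called, Tectb, against 8.84% of all genes. That call was 1 of 7 in the higher direction (2.24% of all genes) and 0 of 7 in the lower direction (6.60%). The 2 genes that were lower had an unadjusted p under 0.05 by edgeR and folds of 1.47 (Otogl) and 1.29 (Otol1), limma-voom called 1 of them (Otogl), and DESeq2 called 0. Control and neomycin values were fully separate in 3 of 7 (Tectb, Otoa and Otol1), against 43.5% of all genes. Among the neomycin samples, replicate 1 held the highest value of 7 of the 8 genes, all but Otol1. The median log2 fold change of all genes tested was -0.00. The labels only number the replicates, and the pooling of cochleae is given in the study's methods. Nothing states that the pools came from separate cultures or days, so p-values measure the spread between these pools, which may be technical.

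**Figure D1:**
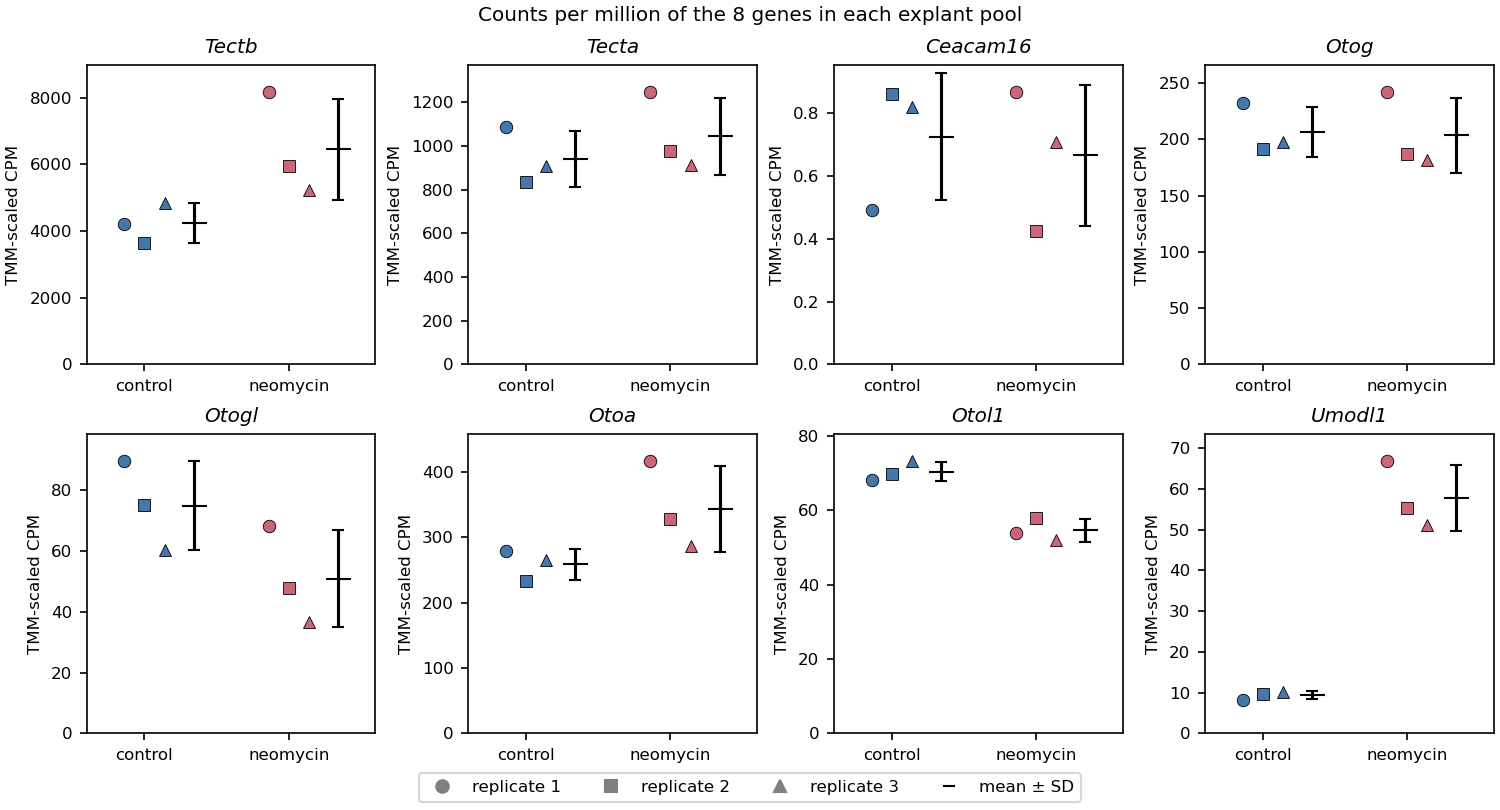
Level of each gene in TMM-scaled CPM (vertical axes from 0) in the 3 control and 3 neomycin pools, with the marker giving the replicate number and the bar the mean ± SD. The groups separate for Tectb, Otoa, Otol1 and Umodl1, with Tectb at 3652 to 4842 CPM in controls and 5245 to 8154 CPM after neomycin, and overlap for the other genes.

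Tectb encodes β-tectorin, a zona pellucida domain protein of the striated sheet, on chromosome 19 (mm10 55180733 to 55196313, plus strand, 10 exons). Its level was 4197, 3652 and 4842 CPM in control replicates 1 to 3, and 8154, 5936 and 5245 CPM in neomycin replicates 1 to 3. All neomycin samples lay above all control samples, with neomycin replicate 1 far above the others. Tectb ranked 6 of all symbols by mean level in CPM. Its exons share 57 bases with Mir6715, a microRNA gene on the same strand that is also in the count table. The group means were 4230 ± 596 CPM in controls and 6445 ± 1520 CPM after neomycin (SD, n = 3 each), a fold of 1.52. The log2 fold change was 0.61 (SE 0.16, edgeR adjusted p = 0.0138), with a 95% interval of 0.30 to 0.92. Without control replicate 2 it was 0.52 with an adjusted p of 0.079 by edgeR, and without neomycin replicate 1 it was 0.40 with an adjusted p of 0.0363, below the fold threshold.

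Tecta encodes α-tectorin, the partner of β-tectorin, on chromosome 9 (42329619 to 42399929, minus strand, 24 exons). Its level was 1084, 834.9 and 905.8 CPM in the controls and 1244, 975.8 and 911.3 CPM after neomycin. The groups overlapped. The means were 942 ± 128 CPM and 1044 ± 176 CPM (SD, n = 3 each), and the log2 fold change of 0.15 (SE 0.13) did not pass the test (edgeR adjusted p = 0.407). Its 95% interval ran from -0.10 to 0.40, so a difference of the size seen for Tectb lies outside it, although the difference between these genes was examined only as a ratio. Within each sample, Tectb exceeded Tecta per kilobase of exon by 7.51, 8.49 and 10.4 in the controls and by 12.7, 11.8 and 11.2 after neomycin. This ratio was 8.79 ± 1.45 in controls and 11.9 ± 0.78 after neomycin, without overlap, and an exact two-sided permutation test gave p = 0.1, the smallest that 3 against 3 allows. Per kilobase of coding length in place of exons, the ratio was 28.8 ± 4.76 in controls and 39 ± 2.56 after neomycin (SD, n = 3 each), so its size depends on the length used. Over genes with a known exon length, the slope of log2 fold change was -0.128 per doubling of that length. Tecta has 7411 exon bases and Tectb 3820, and division by length leaves such a trend in the ratio. With a gene length correction the log2 fold changes were 0.27 for Tecta and 0.585 for Tectb, closer together than without it. The part of the trend in the ratio was not tested. Ratios were chosen after the values were seen. Tecta shares 304 bases of exon with Gm47629 on the opposite strand, which is not in the count table.

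Ceacam16 encodes a secreted CEACAM protein that binds both tectorins and whose expression rises later in postnatal life. It lies on chromosome 7 (19852097 to 19861299, minus strand, 6 exons). It was near the limit of detection, with 34, 45 and 46 counts in controls and 46, 25 and 38 counts after neomycin. The levels were 0.493, 0.863 and 0.818 CPM against 0.866, 0.424 and 0.708 CPM. The groups overlapped over nearly their whole range, and the log2 fold change of -0.12 (SE 0.41) did not pass the test (edgeR adjusted p = 0.855, 95% interval -0.92 to 0.68). At this depth neither a fall nor a rise of the size seen for Tectb could be told from no change. Ceacam16 shares 380 bases of exon with Gm19345 on the opposite strand, and the strand setting of the counting is not given in the sources used here.

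Otoa encodes otoancorin, which attaches the tectorial membrane to the spiral limbus and other acellular gels to non-sensory cells. It lies on chromosome 7 (121081650 to 121163097, plus strand). Its level was 278.6, 232.2 and 265 CPM in controls and 416, 327.4 and 285.9 CPM after neomycin. All neomycin samples lay above all controls. The means were 259 ± 23.9 CPM and 343 ± 66.5 CPM (SD, n = 3 each), and the log2 fold change was 0.41 (SE 0.12, edgeR adjusted p = 0.0258, 95% interval 0.17 to 0.65), a rise below the fold threshold of 1.5. By edgeR, leaving out control replicate 2 gave an adjusted p of 0.117, leaving out neomycin replicate 1 gave 0.0887 and leaving out neomycin replicate 2 gave 0.0626. Per kilobase, Otoa relative to Tecta was 0.242 ± 0.0157 in controls and 0.288 ± 0.0108 after neomycin (SD, n = 3 each), without overlap (exact two-sided permutation p = 0.1, the smallest possible).

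Otog encodes otogelin, on chromosome 7 (46240987 to 46311434, plus strand, 56 exons). Its level was 232.1, 190.9 and 197.3 CPM in controls and 241.5, 187.1 and 181.7 CPM after neomycin. The groups overlapped throughout. The log2 fold change of -0.02 (SE 0.11) did not pass the test (edgeR adjusted p = 0.895, 95% interval -0.24 to 0.19), and its sign changed with several settings. Otogl encodes otogelin-like, on chromosome 10 (107760531 to 107912134, minus strand, 58 exons). Its level was 89.5, 75.1 and 60.2 CPM in controls and 68.2, 47.8 and 36.6 CPM after neomycin. Neomycin replicate 1 lay within the control range and the other 2 neomycin samples below it. The means were 74.9 ± 14.6 CPM and 50.9 ± 16.0 CPM (SD, n = 3 each), and Otogl fell by 0.56 on the log2 scale (SE 0.19, edgeR adjusted p = 0.0393). With DESeq2 the log2 fold change was nearly the same, -0.55, but the adjusted p was 0.159. By edgeR with 1 sample left out, Otogl missed the threshold without control replicate 1 (-0.41, adjusted p = 0.126), control replicate 2 (-0.56, 0.105), neomycin replicate 2 (-0.52, 0.133) and neomycin replicate 3 (-0.37, 0.124). It passed both thresholds without control replicate 3 (-0.69, adjusted p = 0.0174 by edgeR) and without neomycin replicate 1 (-0.83, adjusted p = 0.00179). With the replicate number as a block, Otogl also passed both (-0.585, SE 0.071, edgeR adjusted p = 0.000226). The ratio of Otog to Otogl per kilobase of exon was 2.20, 2.15 and 2.77 in controls and 3.00, 3.31 and 4.21 after neomycin. It was higher in all 3 neomycin samples (exact two-sided permutation p = 0.1, the smallest possible).

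Otol1 encodes otolin-1, a C1q and collagen domain protein, on chromosome 3 (70007613 to 70028708, plus strand, 5 exons). Its level was 68.1, 69.7 and 73.1 CPM in controls and 54.0, 57.9 and 51.9 CPM after neomycin. The controls stayed within a narrow range above all neomycin samples. Otol1 fell by 0.37 on the log2 scale (SE 0.07, edgeR adjusted p = 0.00304, 95% interval -0.50 to -0.23), with means of 70.3 ± 2.56 CPM and 54.6 ± 3.03 CPM (SD, n = 3 each). Its fall was below the fold threshold, and it kept an adjusted p under 0.05 in every alternative tried.

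**Figure D2:**
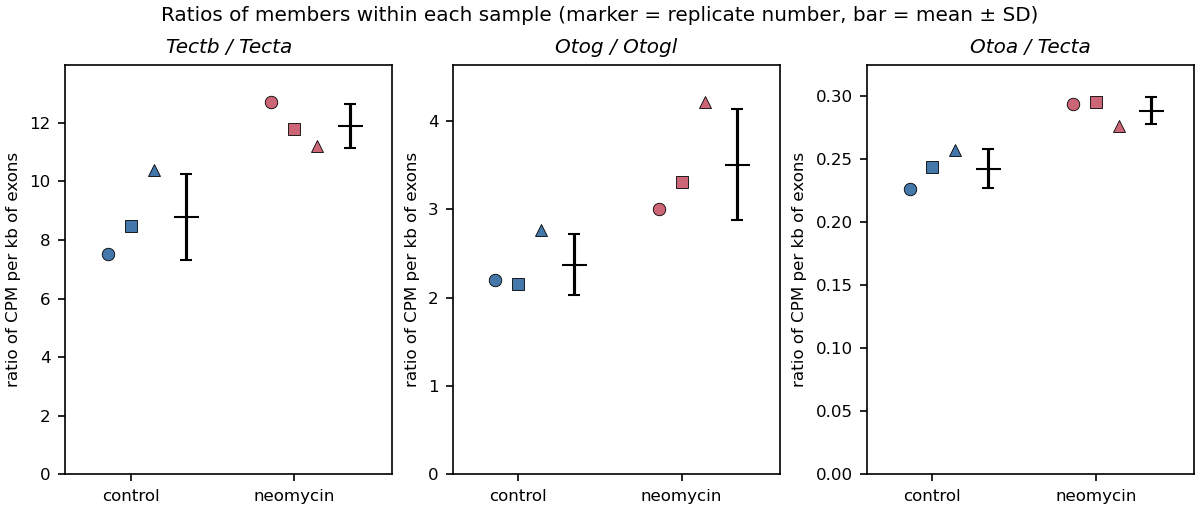
Ratio of CPM per kb of exons between pairs of genes within each sample (vertical axes from 0), by group, with the marker giving the replicate number and the bar the mean ± SD. All neomycin ratios lie above all control ratios, at 11.2 to 12.7 against 7.51 to 10.4 for Tectb over Tecta.

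Umodl1 encodes uromodulin-like 1, a zona pellucida domain protein first described in olfactory neurons, on chromosome 17 (30954640 to 31010710, plus strand, 22 exons). Its level was 8.23, 9.70 and 10.2 CPM in controls and 66.8, 55.3 and 51.1 CPM after neomycin. All neomycin samples lay far above all controls, which is what the gene was selected on. The underlying counts were 568, 506 and 571 in controls and 3547, 3263 and 2746 after neomycin. The means were 9.36 ± 1.01 CPM and 57.7 ± 8.11 CPM (SD, n = 3 each), a fold of 6.17 and a log2 fold change of 2.63. Umodl1 relative to Tecta per kilobase went from 0.0145 ± 0.00316 in controls to 0.0792 ± 0.00226 after neomycin. Umodl1 overlaps 3 other genes but shares 0 exon bases with them.

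Of the 14036 genes with a mean of at least 1 CPM, the profiles over the 6 samples closest to that of Umodl1, by root mean square distance of centred log2 CPM, were those of Il13ra2 (0.294), Otos (0.306) and Mir99a (0.463). Il13ra2, a decoy receptor for interleukin 13, had mean levels of 1.25 CPM in controls and 5.75 CPM after neomycin. Otos, which encodes otospiralin of cochlear fibrocytes, had mean levels of 85.3 ± 30.7 CPM and 550 ± 101 CPM (SD, n = 3 each). Otos is a marker in the mesenchyme and fibrocyte list. Of the 12 genes of that list, 4 were higher and 2 lower by edgeR, against 12.9% and 16.1% of all genes tested. The list summed to 6321 to 6941 CPM in controls and 7518 to 7579 CPM after neomycin. Without Dcn and Otos, the 2 markers with the largest difference in CPM, the other 10 summed to 5310 to 6003 CPM in controls and 5586 to 5781 CPM after neomycin, with overlap. None of these markers was at 0, and their part in the result for Umodl1 was not tested. The profiles closest to Tectb were those of Zcchc12 (0.091), Tekt2 (0.1) and Tmprss9 (0.107). The distances for Umodl1 were larger than these. Umodl1 was chosen by its rise, which makes up most of its profile, so the search mainly returns other genes with a large rise. It does not place Umodl1 in a cell type. Likeness of profiles with 3 against 3 samples is a description of these libraries.

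Compared per kilobase of merged exon length, the 8 genes spanned a wide range of levels. Tectb was highest in controls at 1107 ± 156 CPM per kb, followed by Tecta at 127 ± 17.3, Otol1 at 32.5 ± 1.19, Otoa at 30.7 ± 2.83, Otog at 20.0 ± 2.14, Otogl at 8.55 ± 1.67, Umodl1 at 1.803 ± 0.194 and Ceacam16 at 0.443 ± 0.124 (SD, n = 3 each). Among neighbours in this order, only Otol1 and Otoa overlapped. After neomycin, Otoa at 40.7 ± 7.87 CPM per kb lay above Otol1 at 25.3 ± 1.40, and Umodl1 at 11.1 ± 1.56 lay above Otogl at 5.80 ± 1.83. With coding length in place of merged exons, Tectb stood at 4159 and Tecta at 145.6 CPM per kb in controls, and Otoa stood above Otol1 in controls also, at 75.8 and 48.6 CPM per kb of coding sequence.

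**Figure D3:**
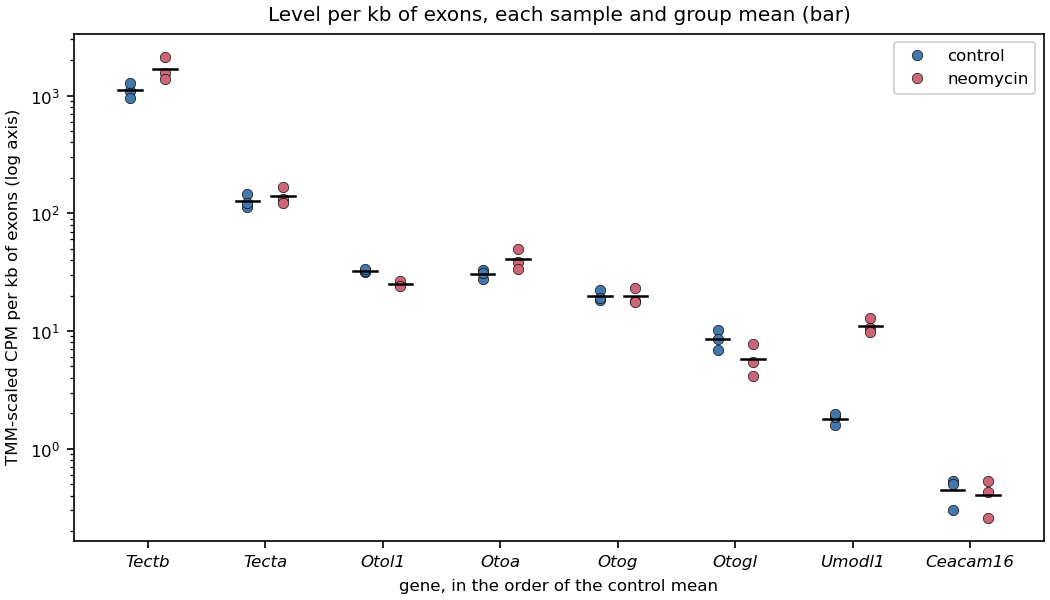
CPM per kb of merged exons on a log axis for the 8 genes, ordered by control mean, with points for samples and bars for group means. Levels run from 1107 CPM per kb for Tectb to 0.443 CPM per kb for Ceacam16 in controls, and Umodl1 moves from 1.803 to 11.1 CPM per kb.

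Relatives and partners of these proteins were examined as lists chosen with earlier results known. Counts of genes that rose or fell are at an adjusted p under 0.05 by edgeR. At that threshold 12.9% of all genes tested were higher and 16.1% lower. Of 12 zona pellucida domain relatives, 5 were tested and 0 passed the adjusted threshold by edgeR (3 at an unadjusted p under 0.05, 1 by DESeq2 and 0 by limma-voom). Their median log2 fold change was -0.22, beside -0.00 for all genes. Eng, an endothelial TGF-β co-receptor, had a log2 fold change of -0.20 and Tgfbr3, betaglycan, one of -0.22, neither past the test (edgeR adjusted p = 0.0954 and 0.0533). The other gene at an unadjusted p under 0.05, Tgfbr3l, went the other way, with a log2 fold change of 0.48 (edgeR adjusted p = 0.0708). Of 8 tested mucin and von Willebrand D domain relatives, 1 rose and 3 fell (median -0.36). The 4 that passed became 2 without control replicate 1 or 2 or neomycin replicate 2 or 3, and 2 with the gene length correction. Vwf, made by endothelium and platelets, fell by 1.37 on the log2 scale from 2.27 ± 0.0717 CPM (edgeR adjusted p = 0.00407), beside a fall in 5 of 6 endothelial markers, whose summed level was 41.5 to 52.8 CPM in controls and 18.8 to 21.1 CPM after neomycin, and whose part was not tested. Muc5ac, a secreted mucin, was near the limit of detection, with mean levels of 0.289 CPM in controls and 0.0458 CPM after neomycin (edgeR adjusted p = 0.0368). Fcgbp, a mucin-like secreted protein, fell by 0.56 and Bmper, a BMP modulator, rose by 0.38 on the same scale (edgeR adjusted p = 0.0152 and 0.0202).

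Of 5 tested stereocilin, mesothelin and CEACAM relatives, 2 fell and 3 did not pass (median -0.55). Strc encodes stereocilin, a relative of otoancorin that joins HC stereocilia to the tectorial membrane. Its level was 38.2, 34.5 and 38.0 CPM in controls and 5.22, 3.90 and 3.69 CPM after neomycin, and Strc fell by 3.11 on the log2 scale (SE 0.13, edgeR adjusted p = 3.43e-08). Mslnl, a mesothelin-like gene, fell by 1.37 on the log2 scale (edgeR adjusted p = 0.00116). Strc is itself an HC marker, and the part of the HC marker fall above in its value was not tested. Of 15 tested C1q domain relatives of otolin-1, 4 rose and 3 fell (median 0.05). The 7 that passed became 4 without control replicate 2, without neomycin replicate 2 and with the gene length correction. C1qa and C1qc, complement genes of macrophages, rose by 0.59 and 0.63 on the log2 scale (edgeR adjusted p = 0.00843 and 0.0057), beside macrophage markers of which 1 of 6 rose, with summed levels of 34.7 to 38.8 CPM in controls and 41.6 to 51.1 CPM after neomycin, whose part was not tested. Cbln1, a synaptic organiser, fell by 1.12 on the log2 scale with overlapping groups (edgeR adjusted p = 0.0225). Col8a1, a short-chain collagen with a C1q domain, fell by 0.48 (edgeR adjusted p = 0.00149).

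Of the 8 collagens of the tectorial membrane, 4 rose and 2 fell (median 0.19). Col9a3, Col9a1 and Col9a2, the chains of collagen IX, rose by 0.44, 0.36 and 0.32 on the log2 scale (edgeR adjusted p = 0.00374, 0.0166 and 0.0222). Col11a2, a chain of collagen XI, rose by 0.35 (edgeR adjusted p = 0.0265). The 2 that fell, named after their values were seen, were Col5a1 and Col5a2, chains of collagen V. Col5a1 lay at the threshold (edgeR adjusted p = 0.0499), with overlapping groups. These levels are of whole explants, and which cells held the collagen RNA was not measured. The count that passed was 1 without control replicate 2, and 2 without each of the neomycin replicates. Of 10 genes of otoconia and cupula formation, 2 rose and 1 fell (median 0.09). Atp2b2, a calcium pump also found in HC bundles, fell by 0.64 on the log2 scale (edgeR adjusted p = 0.0016). Noxo1, an organiser of the NADPH oxidase, rose by 0.27 (edgeR adjusted p = 0.0175). Cyba, a subunit of the NADPH oxidase needed for otoconia, rose by 0.42 (edgeR adjusted p = 0.00787). Of 7 tested genes for processing of the matrix proteins and for the hormones that time it, 1 rose and 1 fell (median 0.04), where Pcsk6 rose by 0.36 and Furin fell by 0.27 on the log2 scale, both proprotein convertases (edgeR adjusted p = 0.0246 and 0.0122). Of this list 0 passed by edgeR without neomycin replicate 2, and 1 without control replicate 1 or 2 or neomycin replicate 1. In the stria vascularis and glia marker lists, 1 of 8 and 1 of 6 genes fell, with medians of -0.03 and 0.01. These shares are near that of all genes tested (16.1% lower). None of the stria genes passed without control replicate 1 or neomycin replicate 2 or 3, and none of the glia genes without control replicate 1 or 2 or neomycin replicate 1 or 2. The stria markers summed to 175.9 to 191.1 CPM in controls and 166.4 to 171.5 CPM after neomycin, and the glia markers to 513.4 to 570.8 CPM and 494.3 to 529.5 CPM.

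**Figure D4:**
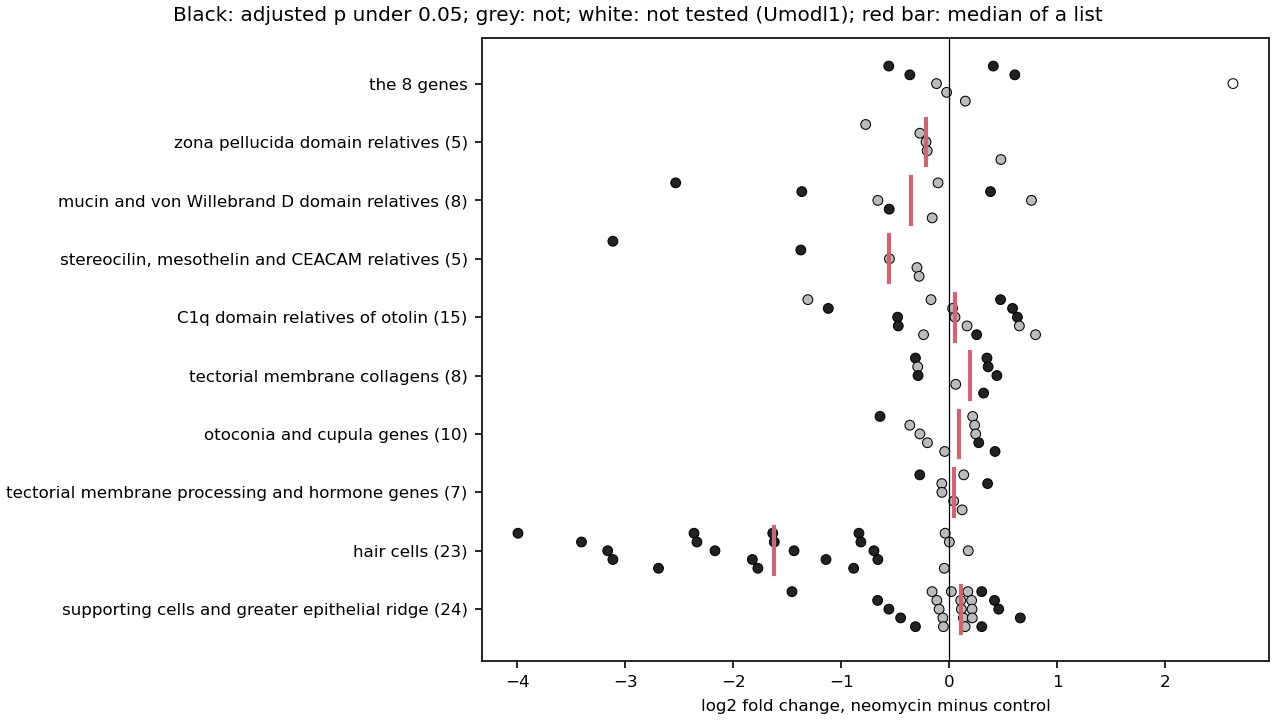
Log2 fold change of neomycin against control for the 8 genes and for the tested genes of each list (number in brackets), with black points at an adjusted p under 0.05, grey points above it, the white point for the untested Umodl1 and a red bar at each list's median. The HC list lies mostly to the left with a median of -1.62, and the supporting cell list is centred near 0 with a median of 0.11.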

How the data were processed

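The RNA-seq series held 6 libraries of cochlear explants, 3 control and 3 neomycin. Per the submitters' processing notes, the tools were CASAVA 1.8, Trimmomatic 0.23, HISAT2, HTSeq and DESeq2, with the mm10 build. The authors deposited raw counts of reads for each gene symbol, as whole numbers without normalization. The strand setting and the treatment of multi-mapping reads are not given in the sources used here. Total counts per sample ran from 50471116 to 66068108.

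From the counts, edgeR 4.0.16 under R 4.3.3 was used with TMM scaling, filterByExpr and its quasi-likelihood test between the groups, and p-values were adjusted by Benjamini-Hochberg over all genes tested. Calls needed an adjusted p under 0.05 with a fold change above 1.5, as in the study's methods. The SE was derived from the F statistic of each gene, and 95% intervals are 1.96 SE to either side. This is the multiplier of a normal distribution, so the intervals are approximate and narrower than the F test itself would give. Levels per kb used merged exons of GENCODE M21. Ratios used the exact two-sided permutation test. Libraries of one group differed by more than sampling noise.

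The members and lists were chosen with earlier results of these data known. Named genes are the members, at most 4 genes of a list (those at an adjusted p under 0.05 with the largest change, or the most abundant where none passes; other names are stated as chosen later), and the 3 genes with the closest profiles. Marker lists are described by counts with medians or summed levels. Alternatives were DESeq2 1.42.0, limma-voom (limma 3.58.1), other scalings and filters, a stricter fold change, a gene length correction (lowess, span 0.3), the replicate block and each sample left out in turn. The code was tested on simulated data. The plots used matplotlib 3.10.9 (Python 3.11.15).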

Additional observations from a re-analysis of the deposited data

How the results depend on the processing

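The number of the 7 family genes called, 1 as reported, was 2 with limma-voom, 2 with the replicate block, 0 with the gene length correction, 0 with the replicate block with the gene length correction and 0 at a fold change over 2, and ran from 0 (without control replicate 2) to 2 (without control replicate 3) with single samples left out. The number at an adjusted p under 0.05, 4 as reported, ran from 1 (without control replicate 2) to 4 with single samples left out. With library totals alone Otogl was called in place of Tectb. All genes called fell from 1413 to 686 at a fold change over 2. The log2 fold change of Otog, -0.02, was 0.16 with the gene length correction and 0.16 with the replicate block added to it, and ran from -0.17 to 0.074 with single samples left out. That of Ceacam16, -0.12, ran from -0.35 to 0.13 likewise. The causes of these changes were not tested. Tecta passed (0.27, adjusted p = 0.0115) only with the replicate block and length correction together. Same-numbered samples had correlations of deviations of 0.165, 0.026 and 0.095, and the other pairs ran from -0.129 to 0.032. Each neomycin replicate thus correlated most with the control of its own number, though weakly. No label states a pairing, so the main test left the numbers out. Whether same-numbered samples shared a batch was not tested. Otol1 ran from -0.53 to -0.32 and Umodl1 from 2.51 to 2.71 over all alternatives. Of 111 alternative values of the log2 fold changes of the 7 tested genes, 92 kept direction and side of the threshold, 11 lost the threshold, 1 gained it and 7 reversed. Otogl with the gene length correction was -0.41 (adjusted p = 0.0836). Of 224 alternative counts over the gene lists, 182 stayed within 1.5 times the reported count, and the otoconia and cupula list went from 3 to 7 with DESeq2. Of 16 control levels per kb under other length definitions, 10 moved by more than the replicate SD. The largest shift of the median over all genes was -0.07, with library totals alone. Depth limits Ceacam16, with 25 to 46 counts per sample.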
